A study of Triticum aestivum with 8 samples.

Results

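Leaves of a synthetic hexaploid wheat line (Triticum aestivum) that had spent 12 weeks at 4 °C were compared with leaves of the same line kept at 24 °C. A synthetic hexaploid is a bread wheat rebuilt from its ancestral species. RNA was labelled with the dye Cy3 and read on one-colour Agilent oligonucleotide arrays, 2 arrays per group. The cold leaves came from plants raised for 3 weeks at 24 °C and then moved to 4 °C for 12 weeks, while the 24 °C leaves came from seedlings 3 weeks old, so the cold plants were also older. Both groups are labelled first leaf, and both began with the same 3 weeks at 24 °C. The study also holds crown tissue, the shoot base with the apical meristem, after 6 weeks at 4 °C and at 24 °C, again with 2 arrays each. The comparison takes the 4 leaf arrays of the 8 in the series, and 29604 of the 37826 non-control probes. A probe was kept where the scanner software marked it as well above background on both cold leaf arrays, on both 24 °C leaf arrays, or on all 4. Levels are given as log2 of the processed signal minus the 75th percentile of the array, so 0 marks the 75th percentile of that array.

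Temperate cereals exposed to low but non-freezing temperatures become more tolerant of frost, a process called cold acclimation. Transcription factors of the CBF/DREB family bind a short element in the promoters of cold-responsive (COR) genes, many of which encode hydrophilic proteins that protect membranes and enzymes during freezing and drying. Long cold also brings winter cereals toward flowering, through vernalization. Leaves adjust photosynthesis and sugar metabolism over the same weeks.

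In the cold leaves 3820 probes were called higher and 6118 lower, at a change of 2-fold or more and an adjusted p below 0.05 (limma, Benjamini-Hochberg over the 29604 probes). This is 12.9% higher and 20.7% lower, or 33.6% of the probes in all. Replicate arrays lay far closer together, with a median absolute difference of 0.0834 at 4 °C and 0.0894 at 24 °C on the log2 scale. The labels speak of 2 independent experiments without saying what separates the replicates, so a p-value here reflects the spread between these arrays alone, which may be technical. Temperature, plant age, scan day, scanner and version of the scanner software change together between the leaf groups and cannot be told apart. In bulk leaf RNA, fewer cells of a type and less RNA per cell cannot be told apart either.

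The balance of rises and falls depended on the scaling. Against the 3820 rises and 6118 falls at the 75th percentile, quantile normalization gave 4943 rises and 4595 falls, and cyclic loess gave 5064 rises and 5163 falls. Scaling to the array median gave 5375 rises and 4892 falls, and scaling to the E1A spike-in RNAs gave 6798 rises and 4179 falls. Normexp background correction gave 1977 rises and 7966 falls with the 75th percentile, and 2743 rises and 3089 falls with quantile normalization. Whether more probes rose or fell therefore changed with the scaling, and counts by direction are read below beside the counts over all probes.

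Gene names were scarce on the array. Only 6 probes carry a gene symbol, none of the 37826 probe names matched the RefSeq gene table used here, and no probe carries the name of a leaf marker gene, so the leaf label was not checked against markers. Of the 4 cold and dehydration genes among the 6, only Wcor15 and RD29B were measured above background in leaf, 1 higher and 1 lower. Both DREB probes, DREB2A and DREB2B, were not well above background on any of the 8 arrays, and the same held for RD29A and cor47. On the leaf arrays these 4 probes read from -10.37 to -9.86 at 4 °C and from -8.51 to -8.07 at 24 °C, near the medians of the negative-control spots, which were -9.98 and -10.35 at 4 °C and -8.34 and -8.07 at 24 °C. RD29A and cor47 are named after cold- and dehydration-responsive genes of Arabidopsis, and DREB2A and DREB2B after drought-responsive factors of the DREB family. A reading at the negative controls gives only an upper limit, not a sign that the transcript is missing.

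Wcor15, a cold-responsive wheat gene whose product is targeted to the chloroplast, rose strongly in the cold leaves. It read -0.78 and -0.71 on the leaf arrays at 4 °C, against -7.44 and -8.06 on those at 24 °C, where neither reading was well above background. Both cold arrays lay far above both 24 °C arrays. Because the 24 °C leaf was at background, the rise is a bound: Wcor15 was at least 43.7-fold higher in the cold leaves, against the detection limit of the 24 °C arrays, the mean of their lowest signals that passed as well above background. Wcor15 entered the test through its cold readings alone, and the adjusted p of the fit, which takes the background readings as they stand, was 2.99e-06 (limma). Bounds under the alternatives ranged from 2.97 to 6.49 on the log2 scale, around 5.45 in the chosen scaling.

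RD29B, a gene known in Arabidopsis for its response to abscisic acid and dehydration, went the other way. It read -6.47 and -6.45 in cold leaves, against -4.80 and -4.32 at 24 °C, and the groups did not overlap. The level in cold leaves was 3.74-fold lower, a change of -1.90 on the log2 scale (SE 0.16, limma, adjusted p = 0.000116). RD29B was dim, and its cold readings lay below the detection limits of the 24 °C arrays, -6.35 and -6.04. It falls in the dimmest of 10 level groups described below, where 46.0% of probes were called lower and 3.15% higher. The negative-control medians were also lower in the cold, at -9.98 and -10.35, against -8.34 and -8.07 at 24 °C. The part of that shift in the fall of RD29B was not tested. With all readings held at or above a common floor of -6.04, the RD29B change was -1.48. Over all alternatives it ran from -2.14 to -0.33. Under normexp with quantile normalization the change was -0.33 and no longer reached 2-fold, at an adjusted p of 0.00411 (limma).

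Of the probes detected on all 4 leaf arrays, the 2 with the greatest rises were the contigs wheat0130Contig15644 and whfl_allContig550. No annotation names their genes. wheat0130Contig15644 read 3.82 and 3.84 in cold leaves, against -5.49 and -5.43 at 24 °C, a 626-fold difference (log2 change 9.29, SE 0.05, limma, adjusted p = 2.1e-07). whfl_allContig550 read 4.71 and 4.81 in cold leaves, against -4.30 and -4.21 at 24 °C, a 517-fold difference (log2 change 9.01, SE 0.06, limma, adjusted p = 2.1e-07). Both lay above the 75th percentile on the cold arrays and near the low end of the 24 °C arrays, with no overlap between the groups.

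Of the same probes, detected on all 4 leaf arrays, whsh_allContig1173 and whsh_allContig582 had the 2 greatest falls, likewise without annotation. whsh_allContig1173 read -4.33 and -4.19 in cold leaves, against 6.83 and 6.74 at 24 °C. It was 2112-fold lower in cold leaves (log2 change -11.04, SE 0.07, limma, adjusted p = 2.1e-07). whsh_allContig582 read -6.83 and -6.78 in cold leaves, against 3.74 and 3.57 at 24 °C, and was 1404-fold lower (log2 change -10.46, SE 0.22, limma, adjusted p = 1.48e-06). These 4 probes kept their direction and call in every alternative processing tried, with changes from 7.20 to 9.69 and 7.53 to 9.52 for the rises and from -11.12 to -9.23 and -10.54 to -7.63 for the falls.

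**Figure D1:**
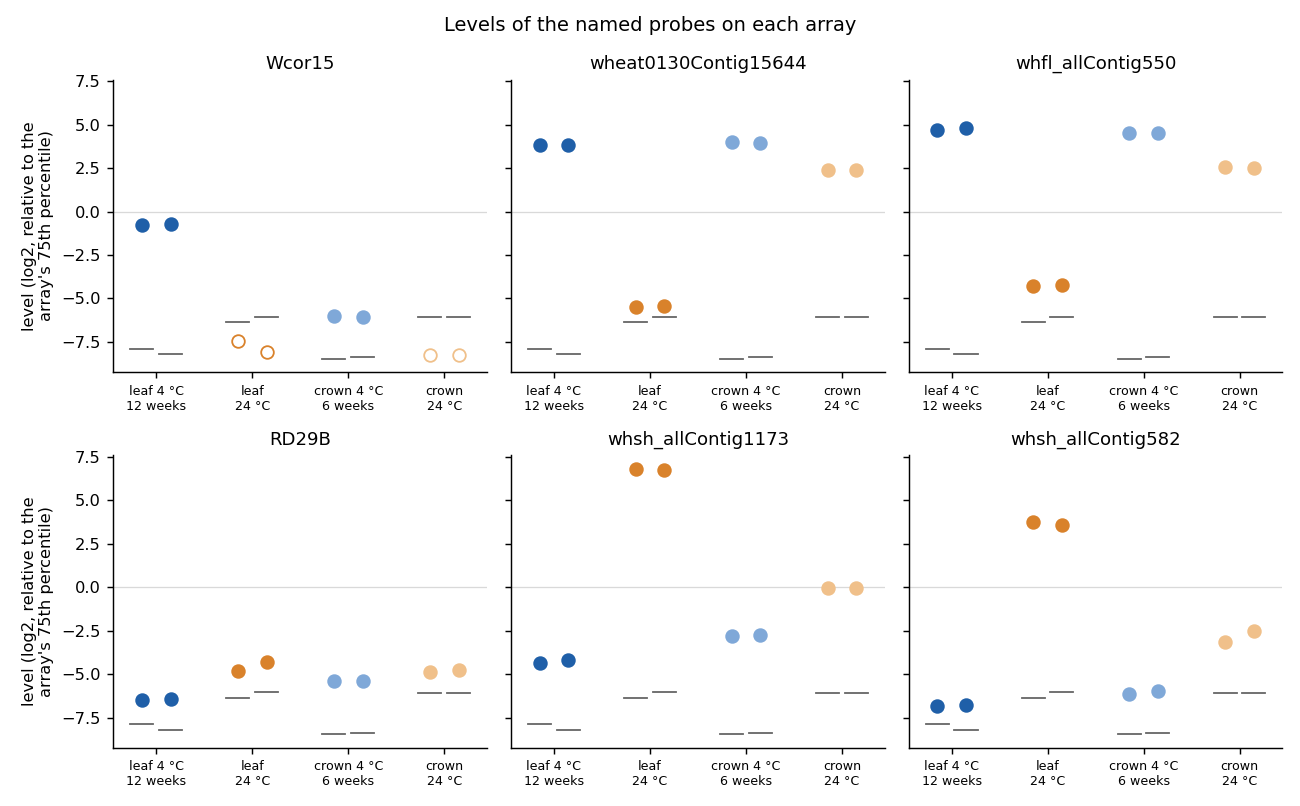
Level of the 6 named probes on each of the 8 arrays, as log2 of the processed signal relative to the 75th percentile of the array; short bars mark the lowest signal well above background on that array and open circles are readings not well above background. Wcor15 and both rising contigs sit far higher in the leaf at 4 °C than in the leaf at 24 °C, RD29B and both falling contigs sit lower, and the crown arrays show smaller differences.

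Most changes were of modest size, with a long tail. Over the 26301 probes measured on all 4 leaf arrays, 2822 rose and 5432 fell. Past 16-fold 98 rose and 180 fell, at 64-fold 27 and 36, and at 256-fold 5 and 7. The median change was -0.12 over these probes and -0.09 over all tested. Each array was scaled to a percentile of its own signal, so the size and sign of this median depend on the scaling. The median therefore cannot show whether leaf transcripts shifted as a whole, and it is not read as a result.

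**Figure D2:**
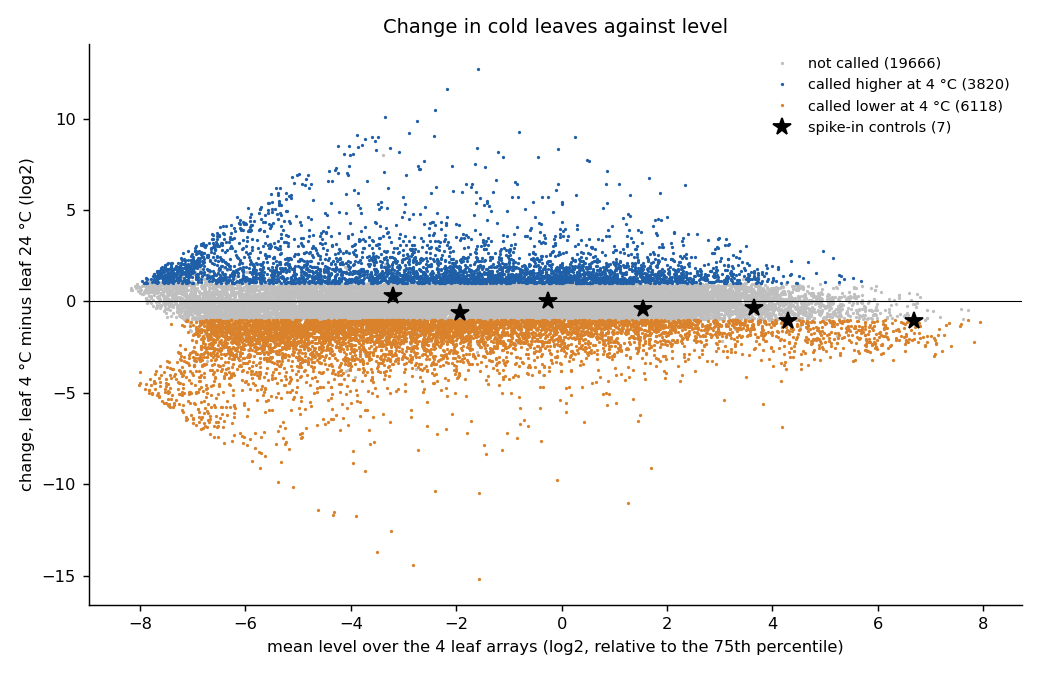
Change in cold leaves (log2, leaf 4 °C minus leaf 24 °C) of the 29604 tested probes against their mean level over the 4 leaf arrays, with calls in colour and the 7 spike-in controls as stars. Rises of many log2 units are found over a wide span of levels below about 2, and falls reach to both the dim and the bright end.

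Some probes were measured in only 1 of the leaf groups. Above background on both cold arrays and on neither 24 °C array were 2047 probes. Above background on both 24 °C arrays and on neither cold array were 339. Such probes passed the filter only through the group that detected them, so their calls are not read as a result of their own. They do enter the counts over all tested probes. The 2047 gave 887 of the 3820 rises and 42 of the 6118 falls, and the 339 gave 0 rises and 338 falls. The detection limit itself differed, since the lowest signal well above background was -7.89 and -8.19 on the cold arrays, against -6.35 and -6.04 on the 24 °C arrays, and 77.3% and 79.3% of all probes passed it in the cold, against 73.1% and 72.1% at 24 °C. Taken as bounds against the limit of the dim group, 389 of the 2047 probes seen only in the cold were at least 2-fold higher and 62 at least 16-fold higher, with a greatest bound of 1989-fold. Wcor15 ranked 35 among these bounds. For the 339 seen only at 24 °C a 2-fold bound says little, since the 24 °C limit itself lies above the cold limit by more than that. Of these, 124 were at least 16-fold lower in the cold, with a greatest bound of 17206-fold. The 2-fold count for the cold side moved with the processing, to 82 under normexp with the 75th percentile and 870 under cyclic loess.

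The direction of the calls varied with level. The 26301 probes detected on all 4 leaf arrays were ordered by mean level and split into 10 groups of equal size, with group 1 the dimmest. In group 1 3.15% were called higher and 46.0% lower, and in group 10 7.34% higher and 22.7% lower, while in groups 5 to 8 the shares lay within 11.7% to 13.1% higher and 11.3% to 15.1% lower. Group 1 spanned mean levels from -6.90 to -4.61, above the medians of the negative-control spots given beside the DREB probes, which were lower on the cold arrays. The detection filter also bears on this group, since its probes had to pass the limit of every leaf array. The lowest signal well above background was -6.35 and -6.04 at 24 °C, against -7.89 and -8.19 in the cold. With the higher limit at 24 °C, the dimmest probes had less room to rise than to fall. At the bright end the spike-in RNAs also moved: E1A_r60_1 and E1A_r60_n9, the brightest 2 of the 7 used, each changed by -1.08 in the cold, and the change of the dimmer ones ran from -0.63 to 0.31. The part of this filter, and of the shifts of the negative controls and spike-ins, in the falls at the dim and bright ends was not tested.

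**Figure D3:**
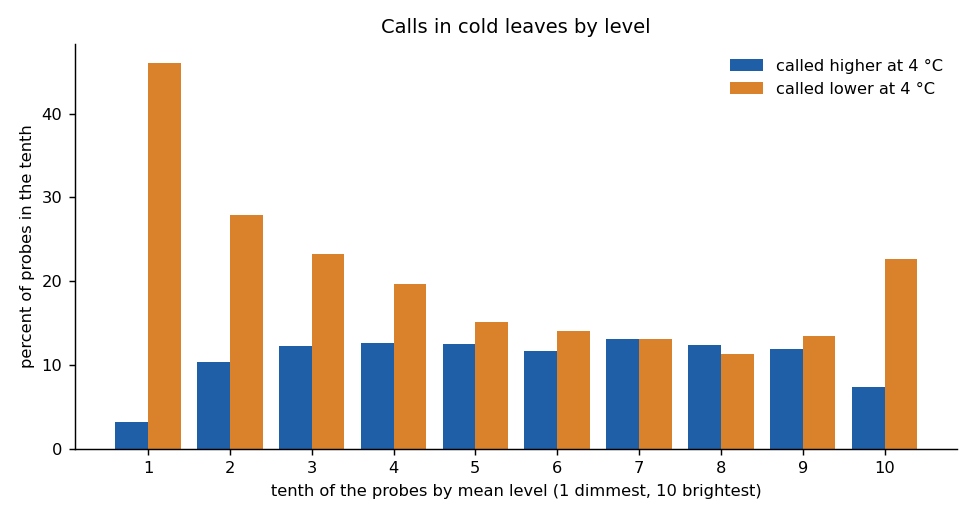
Percent of probes called higher or lower in cold leaves in each of 10 equal groups of the 26301 probes detected on all 4 leaf arrays, ordered by mean level. In group 1, the dimmest, 3.15% are higher and 46.0% lower, and in group 10, the brightest, 7.34% and 22.7%, while both shares lie between 11.3% and 15.1% in groups 5 to 8. The detection filter left the dimmest probes less room to rise than to fall, and the negative controls were lower on the cold arrays. The part of either in these shares was not tested.

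The brightest leaf transcripts took a smaller share of the signal in the cold. The 100 brightest probes held 11.5% and 11.9% of the summed signal on the cold arrays, against 20.1% and 21.1% on the 24 °C arrays, and the 10 brightest held 1.98% and 2.10%, against 3.50% and 3.83%. The groups did not overlap in either share. The bright-corner control spots also moved, with medians over 14 spots of -1.12 and -1.35 on the cold arrays, against 4.66 and 4.29 on the 24 °C arrays, and their part in these shares was not tested. Crown arrays ran the same way, with 12.1% and 11.9% in the cold and 15.7% and 15.9% at 24 °C for the top 100. No probe was saturated on any leaf array.

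Probes that were brightest in 1 group were followed in the other, as a description, since the choice used the same arrays. Of the 100 brightest at 4 °C, 8 were called higher and 38 lower (limma), with a median change of -0.64, where 12.9% of all tested probes were higher and 20.7% lower. Quantile normalization, which makes the distributions of the arrays equal, gave 35 higher and 2 lower. Of the 100 brightest at 24 °C, 91 were called lower in the cold and 0 higher (limma), beside the same 20.7% and 12.9% of all tested probes, and all 100 changes were below 0, with a median of -2.05. Here quantile normalization gave 33 lower and 0 higher. The brightest 2 spike-in RNAs, at mean levels of 6.69 and 4.31, also changed by -1.08 each in the cold. The part of that shift in the changes of both lists was not tested. The lists shared 45 probes, and the median rank of the 24 °C list on the cold arrays was 123.5. The same 100 probes from the 24 °C list changed by a median of 1.20 in the crown, the opposite direction to leaf, on arrays that did not enter the choice.

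Probe names were compared by class, since the name is the only label most probes have. Of 43 name classes, 38 had at least 100 tested probes, and in the chosen scaling more probes were called lower than higher in all 38. Quantile normalization, median scaling and spike-in scaling gave more rises than falls over all probes, and this count of classes was not repeated under them. Among the smaller classes yNPF had 9 higher and 7 lower of 85, and probes named by an accession 7 higher and 5 lower of 19. The share called lower ran from 14.5% to 46.3% with a median of 24.9%, against 20.7% over all tested probes. In whdp, 62 of 134 tested probes were lower (46.3%) and 10 higher, with a median change of -0.86 and 20 probes seen only at 24 °C. Those 20 passed the filter only through the 24 °C group. Over probes detected on all 4 leaf arrays, 36.4% of whdp were lower. That share was 37.6% in whsh_allContig, 35.7% in whvd, and 33.3% in both whsh and whsc, beside 20.7% over all such probes. In whsh_allContig, the class of the 2 named falls, 342 of 902 were lower (37.9%) and 84 higher (9.31%), and its median level at 24 °C was high, at 1.99. The share of whdp lower ranged from 34.3% to 61.2% over the alternatives and that of whsh_allContig from 26.3% to 61.3%, where the share of all probes ran from 10.4% to 42.1%. The largest class, wheat0130Contig with 11561 tested probes, stood close to the background at 18.1% lower and 13.2% higher. The files do not say what these name classes stand for.

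**Figure D4:**
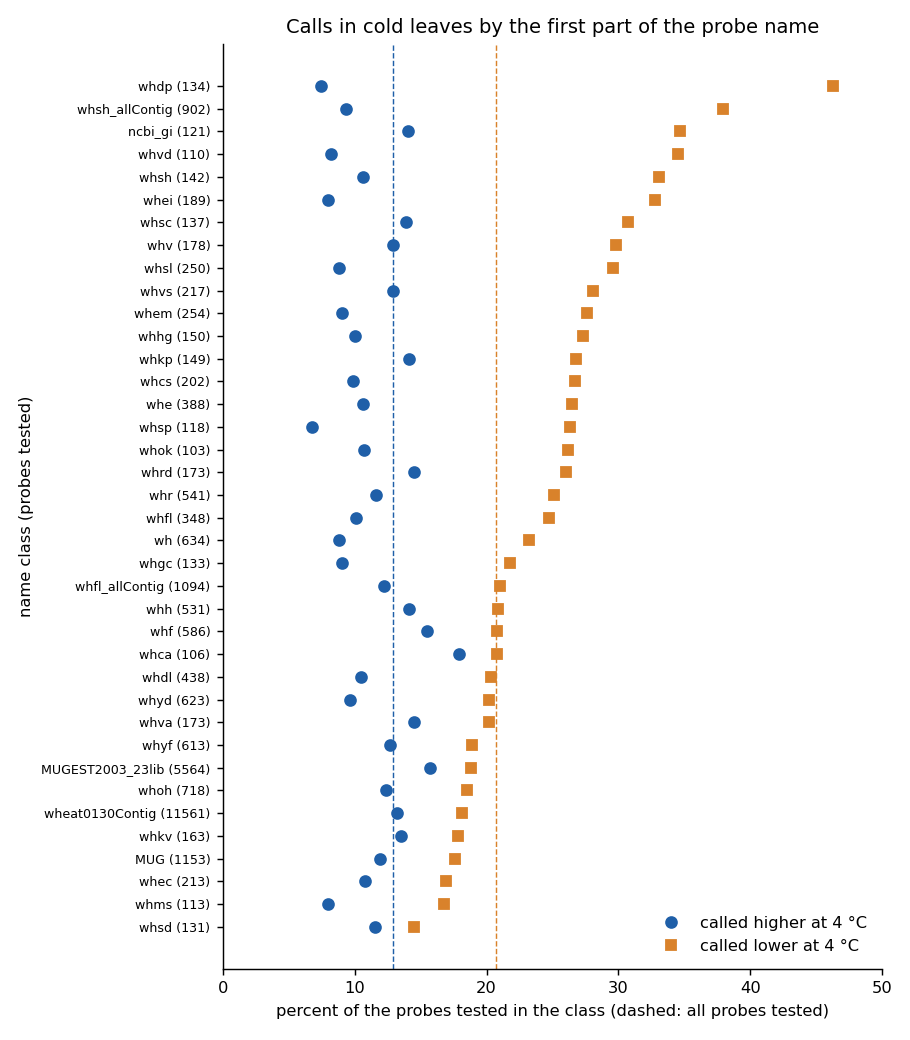
Percent of tested probes called higher or lower in cold leaves for each of the 38 name classes with at least 100 tested probes; dashed lines show the share over all 29604. In this scaling more probes are lower than higher in each class, and whdp at 46.3% and whsh_allContig at 37.9% lie farthest to the right. The whdp share includes 20 probes seen only at 24 °C. Over probes detected on all 4 leaf arrays it is 36.4%, beside 37.6% for whsh_allContig and 35.7% for whvd.

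Probes that share a name except for a prefix or suffix letter allowed a check of the changes against each other. Their meaning is not given in the files, and paired probes may read the same or overlapping sequence. For 1509 pairs whose names differ by a leading r, both members were called higher in 89, both lower in 143 and opposite in 29, while 1 member alone was called in 423 pairs and neither in 825. Over the 1162 pairs measured on all 4 leaf arrays, the changes correlated at Pearson r 0.57 and Spearman rho 0.59, as a description across probes, with a median absolute difference of 0.49. For 99 pairs whose names differ by p and m, on all 4 arrays, r was 0.35 and rho 0.21, the median difference was 1.28, and 42 pairs were both lower, 2 both higher and 4 opposite, while 1 member alone was called in 41 and neither in 10.

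**Figure D5:**
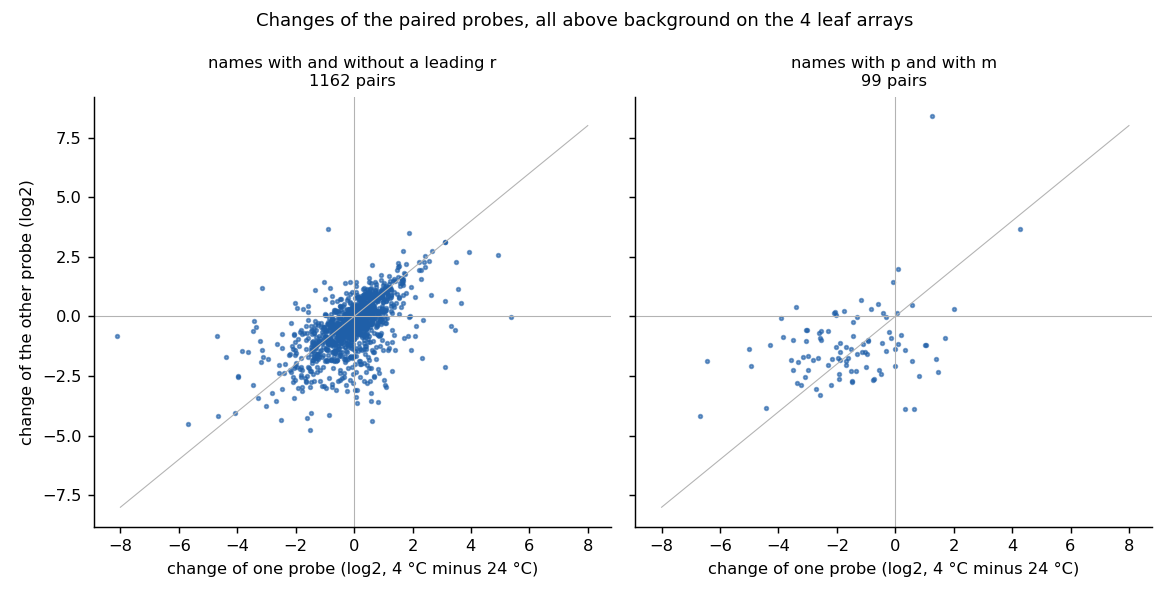
Change in cold leaves (log2, leaf 4 °C minus leaf 24 °C) of the members of name pairs, against each other, for 1162 pairs whose names differ by a leading r (left) and 99 pairs that differ by p and m (right). Most of the left-hand pairs lie near the diagonal, and the right-hand pairs scatter more. Of the right-hand pairs 42 were called lower in both members and 2 higher in both. Probes named with p or m were dim, with median levels of -4.44 and -4.33.

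The levels on the crown arrays do not enter the leaf change, although the crown arrays share in the estimate of the spread behind the leaf calls; the 4 leaf arrays fitted alone gave 3834 rises and 6064 falls. Crown cold lasted 6 weeks and leaf cold 12, so tissue and length of cold cannot be told apart, and the descriptions of the crown controls speak of leaves although their titles and source names say crown. The 3820 probes called higher in leaf changed by a median of 0.42 in crown, with 29.6% at least 2-fold higher and 15.1% at least 2-fold lower. The 6118 called lower changed by a median of -0.33, with 31.7% at least 2-fold lower and 16.8% at least 2-fold higher. Over all tested probes the crown median was 0.14, with 19.8% at least 2-fold higher and 16.8% lower.

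The steepest leaf changes were set beside the crown as well. Of the 98 rises of at least 16-fold, 34.7% were at least 2-fold higher and 21.4% at least 2-fold lower in crown, and their leaf response exceeded the crown response in 92 (93.9%) by the limma test of the difference. Of the 180 falls of that size, 61.1% were at least 2-fold lower and 21.1% at least 2-fold higher in crown, and the leaf response was the more negative in 130 (72.2%) by the same test. Over all probes tested for the difference, 5382 had a higher leaf response and 9624 a lower one, which is 16.4% and 29.3%, and 45.8% together. Of the leaf calls, 2183 of 3820 (57.1%) and 3871 of 6118 (63.3%) differed from crown in the direction of the leaf change. Of all 29604 probes tested in leaf, 36.1% did so. The 16-fold sets and the leaf calls were both chosen by the leaf arrays that also enter the difference, so a difference in that direction was favoured by the choice.

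The named probes were read in crown as well. Wcor15 was measured in crown only in the cold, where it read -5.98 and -6.05, against -8.25 and -8.23 at 24 °C. With both 24 °C groups at background, neither response of Wcor15 was measured and their difference is not given as a result here; in the cold its mean was -0.74 in leaf and -6.01 in crown. Both rising contigs were already bright in crown at 24 °C: wheat0130Contig15644 read 4.00 and 3.98 in the cold, against 2.40 and 2.38, and whfl_allContig550 read 4.53 and 4.53, against 2.57 and 2.54. whsh_allContig1173 read -2.78 and -2.72 in cold crown, against -0.02 and -0.06, and whsh_allContig582 read -6.14 and -5.99, against -3.16 and -2.49. RD29B read -5.40 and -5.42 in cold crown, against -4.88 and -4.76 at 24 °C, a change of -0.59 that did not reach 2-fold. The 4 contigs were chosen as the largest leaf changes on the leaf arrays that enter the difference, so their differences are a description. The leaf response minus the crown response was 7.69 for wheat0130Contig15644 (SE 0.07), 7.04 for whfl_allContig550 (SE 0.09), -8.34 for whsh_allContig1173 (SE 0.10) and -7.21 for whsh_allContig582 (SE 0.31) on the log2 scale. For RD29B it was -1.32 (SE 0.22, limma, adjusted p = 0.00258), and that call was lost or fell short of 2-fold under 6 of the alternatives.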

How the data were processed

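Per the labels' protocols, leaf and crown RNA was labelled with Cy3. The scanner files hold intensity values from Agilent Feature Extraction, per the file headers: the cold groups used version 10.5.1.1, the 24 °C leaf arrays 9.5.3.1 and the 24 °C crown arrays 10.7.3.1. Version 9.5 stands in the submitters' processing notes. Per the file headers, the background and saturation flags are other columns of 0 or 1 per spot. The authors also deposited a normalized intensity table, each column of which equals the processed signal times 1 factor between 0.993 and 1.89, set in a way not given in the sources used here.

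The background-subtracted processed signal was taken to log2 minus the array's 75th percentile over 37826 probes, with 1417 control spots set aside. With limma 3.58.1 (R 4.3.3), one group-means model took all 8 arrays (4 residual and 1.55 prior degrees of freedom), the spread being shared over probes above background in at least 1 of the 4 groups. Contrasts were leaf 4 °C minus leaf 24 °C and the leaf response minus the crown response, with Benjamini-Hochberg adjustment over the probes tested and calls at adjusted p below 0.05 and at least 2-fold. The smallest two-sided p of an exact permutation test of 2 arrays against 2 is 0.333, so none was used. The code was tested on simulated data. The labels do not say whether the replicate numbers pair the leaf arrays, and the main fit used no pairing. Across probes, differences between replicates in the 2 leaf groups correlated at r = 0.00371, which cannot exclude a shared experiment.

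Named probes were all with a gene symbol and, as no annotation was given, the 2 largest rises and falls among called probes that all 4 leaf arrays detected above background. The probes, lists and alternatives were chosen with earlier results of these data known. Normexp correction (offset 50) was run on the median spot signal, in place of the planned mean signal, which was not used here. Alternatives were other scalings, the authors' table, other filters, blocks, thresholds and priors, and leaving out each leaf array. Arrays lay on 5 slides and 2 scanners and were scanned on 4 days; the cold leaf arrays shared 1 slide and the 24 °C leaf arrays lay on 2 others, so the slide is tied to the group. The number of arrays limits the precision.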

Additional observations from a re-analysis of the deposited data

Results flagged for a closer look

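The results below were picked out because the limma interaction term, the test of the difference between responses itself, found the leaf response (12 weeks at 4 °C) to differ from the crown response (6 weeks at 4 °C). Tissue and length of cold cannot be told apart in it. Of the 32796 probes tested for the difference, 15006 (45.8%) passed, so passing is common. The leaf response minus the crown response was 4.778 for Wcor15, 7.694 for wheat0130Contig15644 and 7.038 for whfl_allContig550 on the log2 scale. It was -1.317 for RD29B, -8.339 for whsh_allContig1173 and -7.213 for whsh_allContig582. For Wcor15 the fitted value was 4.778, but both 24 °C groups were at background. Neither response of Wcor15 was measured, so that value is not read as a result. The 4 contigs were chosen as the largest leaf changes, on arrays that enter the difference, so for them a difference was favoured by the choice. For RD29B the difference no longer reached 2-fold under quantile normalization (-0.59), median scaling (-0.99), cyclic loess (-0.71), normexp with the 75th percentile (-0.66, limma adjusted p = 0.096), normexp with quantile normalization (-0.28) and a common floor (-0.90). No group had enough arrays to look for a single array apart from the rest.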

How the results depend on the processing

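The share of leaf calls that were higher was 38.4%. It became 51.8% under quantile normalization, 52.4% under median scaling, 49.5% under cyclic loess, 61.9% with spike-in scaling, 42.5% in the authors' table, 19.9% under normexp with the 75th percentile, 47.0% under normexp with quantile normalization, 23.8% with no filter, 34.1% with all arrays above background and 45.4% with no fold threshold; the cause was not tested. Rises, 3820 in the chosen processing, numbered 6798 with spike-in scaling, 1977 under normexp with the 75th percentile and 10383 with no fold threshold. Falls, 6118, numbered 3089 under normexp with quantile normalization, 12225 with no filter and 12462 with no fold threshold. Probes with a leaf response unlike the crown response, 15006, numbered 9386 under normexp with quantile normalization and 24252 with no fold threshold. Leaving out each leaf array in turn gave 3777 to 3913 rises, 6142 to 6440 falls and 14634 to 15232 differences from crown. With replicate number as a block, rises were 3811 and falls 6107, and no named call changed. The labels do not say whether arrays with the same number share an experiment. Slide as a random block gave 3884 and 6229, at a fitted within-slide correlation of -0.71. Each slide held arrays of 1 group only, so this fit cannot separate slide from group. Over the alternatives the RD29B leaf change fell short of 2-fold in 1, normexp with quantile normalization (-0.33), and no named change turned direction. Signals near background limit dim probes, whose floor differs between the leaf groups.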
